A study of Mus musculus with 14 samples.

Results

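Of the classical histone deacetylase (HDAC) genes, 10 were followed across all 6 groups of the study, and Hdac10 was not among them. Every line of both count tables was taken whose gene name is Hdac1, Hdac2, Hdac3, Hdac4, Hdac5, Hdac6, Hdac7, Hdac8, Hdac9 or Hdac11. These 10 genes stand on 11 lines, because Hdac4 has 2, among 26570 gene lines in the basal table and 25933 in the learning table. All 11 lines passed the filter on low counts in both tables. HDACs remove acetyl groups from lysines of histones and other proteins, and so oppose acetyltransferases such as CBP and p300, which are linked to memory formation in the hippocampus. Class I enzymes (Hdac1, Hdac2, Hdac3, Hdac8) are mostly nuclear, and Hdac1, Hdac2 and Hdac3 work within co-repressor complexes. Class IIa proteins (Hdac4, Hdac5, Hdac7, Hdac9) shuttle between nucleus and cytoplasm, bind MEF2 transcription factors and leave the nucleus when kinases phosphorylate them and 14-3-3 proteins bind them. Hdac6 (class IIb) is a cytoplasmic enzyme that deacetylates tubulin, and Hdac11 is the sole class IV member.

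RNA was sequenced from the dorsal hippocampus of male C57BL6 mice at an age of 8 months. The basal experiment held resting mice, 3 WT and 2 THY-Tau22. Their sample titles name no treatment, and whether they were injected is not clear from the paper. THY-Tau22 mice are heterozygous for a mutated human Tau transgene driven in neurons by a Thy1 promoter. The learning experiment held 4 groups. WT VEH_HC (n = 3) were WT mice given saline and kept in the home cage, WT VEH (n = 2) were WT mice given saline and trained in the Morris water maze, TAU VEH (n = 2) were trained THY-Tau22 mice given CSP (carbon nanospheres without the molecule), and TAU MOL (n = 2) were trained THY-Tau22 mice given CSP-TTK21, the same spheres carrying an activator of CBP/p300. The TAU VEH and WT VEH groups thus differ in genotype and in the injected vehicle, which cannot be told apart here. The labels do not say that libraries of a group came from separate mice, while a legend of the paper counts the basal groups in mice. The p-values measure the spread between these libraries.

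Libraries held 28639121 to 37681155 counts on genes in the basal experiment and 24693713 to 52180305 in the learning experiment. Thy1, whose promoter drives the transgene, had 786 to 913 CPM (counts relative to the library total, scaled by TMM factors) in the libraries labelled WT and 1805 to 2352 in those labelled THY-Tau22 or TAU, without overlap. Markers of neurons, CA1, CA3 and dentate gyrus were above 0 in every library. The dependence of counts on GC content, the share of G and C bases in a gene's exons, was not the same in all libraries. Across genes, which are not independent, each library's log2 ratio to the mean library was ranked against GC content. Spearman's rho ran from -0.62 to -0.40 in the 4 TAU libraries of the learning experiment, while its 5 WT libraries had 0.085 to 0.45. In the basal experiment it was -0.60 in THY-Tau22 replicate 2 and ran from 0.067 to 0.48 in the other 4. Values corrected within each library for GC content and exon length are therefore given beside the results they bear on.

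All 10 HDAC genes followed here were expressed in the dorsal hippocampus, and Hdac11 and Hdac5 stood above the rest of them. Divided by exon length, Hdac11 had a mean of 60.1 CPM per kb in WT, 53.0 in THY-Tau22, 74.6 in WT VEH_HC, 70.9 in WT VEH, 55.8 in TAU VEH and 61.1 in TAU MOL. It was the highest member in each group, and its libraries did not overlap with those of Hdac5. Hdac5, the class IIa member whose nuclear export follows neuronal activity, came next with 22.9, 19.6, 31.2, 34.1, 22.8 and 26.0 CPM per kb in the same order of groups. Its libraries lay above those of the third member in 5 of the 6 groups. In THY-Tau22 they overlapped with those of Hdac2. Hdac8, an X-linked class I enzyme, was the lowest member in all 6 groups, from 1.65 CPM per kb in WT VEH_HC to 2.52 in WT. The next lowest was Hdac9, and both sets of libraries overlapped in WT only.

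Between these ends, Hdac2, Hdac3 and the downstream line of Hdac4 took ranks 3 to 5 in all groups. In WT, Hdac2 had 16.7 CPM per kb and Hdac3 15.9, with overlapping libraries. In WT VEH, Hdac3 had 13.6 and Hdac2 12.0, without overlap. The order of this pair was therefore not the same in all groups, and their libraries overlapped in WT, THY-Tau22, TAU VEH and TAU MOL. Hdac6, Hdac1, the main line of Hdac4 and Hdac7 lay below, at 3.47 to 8.98 CPM per kb. Summed, with the main line standing for Hdac4, the 10 genes had 140 ± 4.83 CPM per kb in WT (SD, n = 3) and 131 ± 11.6 in THY-Tau22 (n = 2). In the learning experiment the sum was 161 ± 2.58 in WT VEH_HC (n = 3), 159 ± 3.08 in WT VEH (n = 2), 130 ± 1.32 in TAU VEH (n = 2) and 139 ± 2.74 in TAU MOL (n = 2). Hdac5 and Hdac11 together made up 65.4% to 66.3% of this sum in the 5 WT libraries of the learning experiment and 60.1% to 63.1% in the 4 TAU libraries. In the basal experiment it was 57.2% to 60.4% in WT and 51.7% to 59.0% in THY-Tau22, which overlapped. With levels corrected for GC content and length, the learning libraries overlapped too, at 63.1% to 65.8% in WT and 62.8% to 64.7% in TAU. The sums themselves were not corrected. Corrected for GC content and length, mean Hdac5 was 287 CPM in WT VEH and 230 in TAU VEH, against 299 and 200 before. Mean Hdac11 was 263 CPM in WT VEH and 237 in TAU VEH, against 273 and 215 before.

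**Figure D1:**
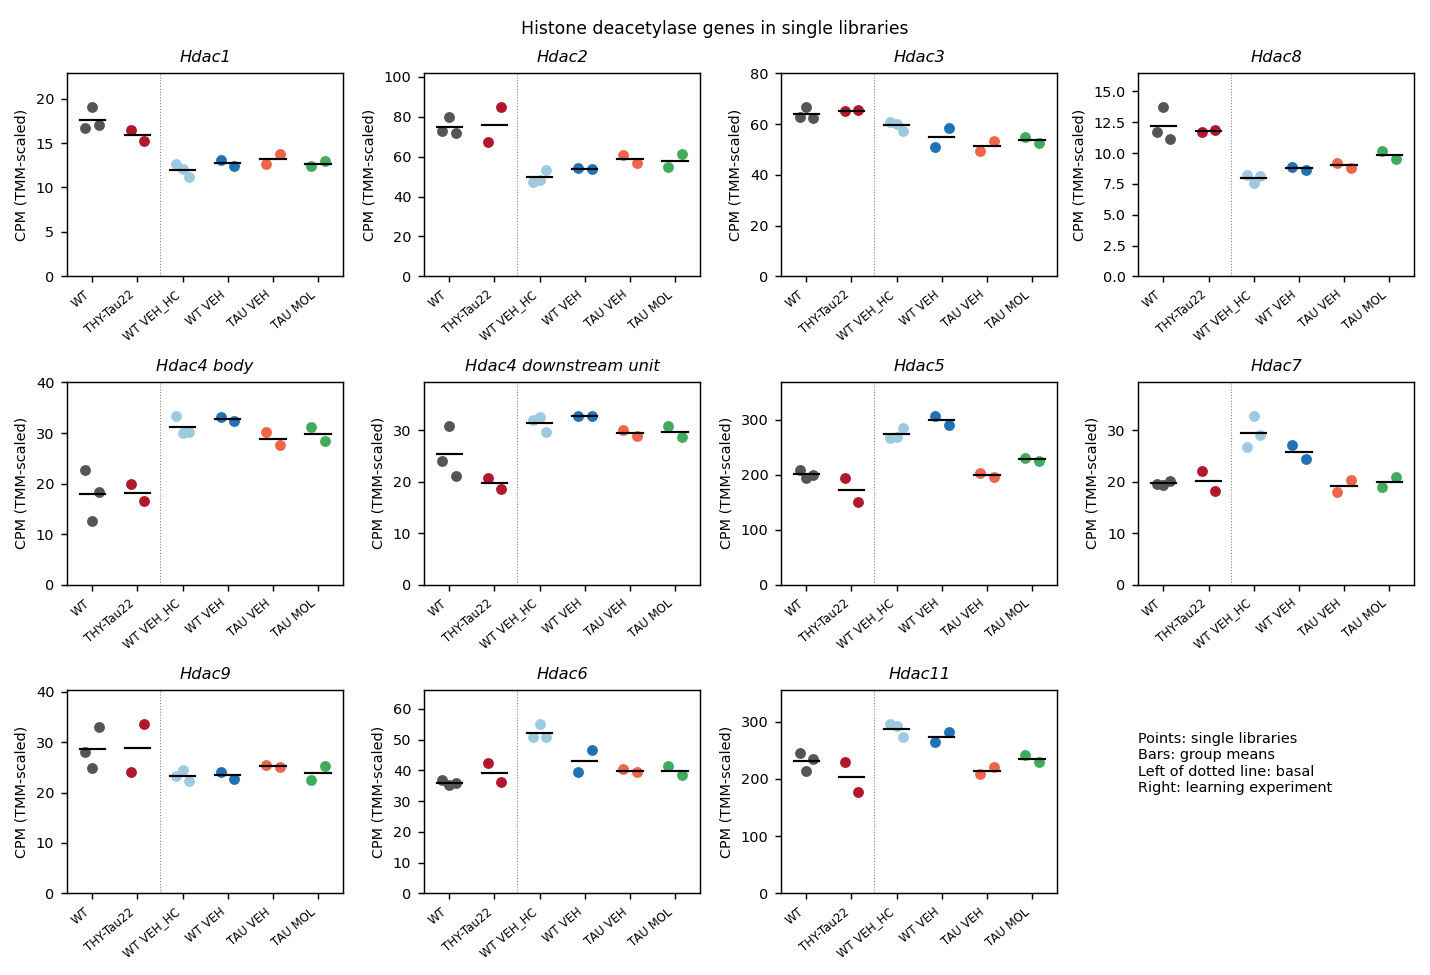
TMM-scaled CPM of each of the 11 HDAC lines (y axis, from 0) in each library, by group (x axis); points are single libraries, bars group means, and Hdac4 body and Hdac4 downstream unit are its main and its downstream line. Both TAU VEH libraries lie below both WT VEH libraries in Hdac5 and Hdac11, and the main line of Hdac4 has its lowest value, 12.7 CPM, in 1 WT library.

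To learn whether resting THY-Tau22 mice differed from WT mice, the basal groups were compared. Called here means an adjusted p under 0.05 (edgeR quasi-likelihood F test, Benjamini-Hochberg over all genes tested) with an absolute log2 fold change above 0.2. None of the 11 HDAC lines was called, where 0.0245% of all 16324 genes were. At an unadjusted p under 0.05 the count was 0 of 11 as well, against 4.92% of all genes, and DESeq2 also called 0. Hdac5 had 209, 194 and 199.9 CPM in the WT libraries and 194 and 150.2 in the THY-Tau22 libraries. The groups overlapped, with a log2 fold change of -0.22 (SE 0.13, adjusted p = 0.90). Hdac11 had the same order of libraries, with 246, 214 and 235 CPM in WT and 230.1 and 178 in THY-Tau22 (log2 fold change -0.18, SE 0.14). After the correction for GC content and length the groups no longer overlapped for either gene. The share of all genes without overlap after the correction was not computed. Corrected Hdac5 was 197, 206 and 195 CPM in WT and 178 and 168 in THY-Tau22 (log2 fold change -0.20, adjusted p = 0.68, edgeR quasi-likelihood F test). Corrected Hdac11 was 216.1 to 237 CPM in WT and 199.0 to 215.9 in THY-Tau22, so that the groups nearly touched (-0.13, adjusted p = 0.76, same test). Neither gene was called. The uncorrected values rested on the 2 THY-Tau22 libraries unequally. Without THY-Tau22 replicate 1, Hdac5 was at -0.40 and Hdac11 at -0.36 (adjusted p = 0.098 and 0.15, edgeR), and without replicate 2 they were at -0.05 and -0.01 (adjusted p = 0.96 and 0.99).

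Hdac1 and the downstream line of Hdac4 were the 2 of 11 lines whose groups did not overlap, both lower in THY-Tau22, against 18.5% of all genes without overlap (9.01% higher and 9.49% lower). Hdac1 had 16.7, 19.1 and 17.0 CPM in WT and 16.5 and 15.2 in THY-Tau22. Its log2 fold change was -0.15 (95% interval -0.43 to 0.13), -0.07 without WT replicate 2 and -0.09 without THY-Tau22 replicate 2. The downstream line of Hdac4 had 24.1, 30.9 and 21.1 CPM in WT and 20.8 and 18.6 in THY-Tau22. At -0.36 (SE 0.17, unadjusted p = 0.052, adjusted p = 0.90, edgeR quasi-likelihood F test) it was the value farthest from 0 among the 11 lines at rest, and it was -0.18 without WT replicate 2. The class I genes as a whole lay between -0.15 and 0.03, and Hdac2, a class I enzyme that has been studied for its part in memory, was at 0.02 (95% interval -0.27 to 0.31). No cell type marker of the 11 lists was called at rest. Summed levels did not overlap for astrocytes (2493 to 2554 CPM in WT and 2828 to 3113 in THY-Tau22), microglia (338 to 353 and 366 to 400.0) and oligodendrocytes (6508 to 10808 and 6087 to 6281). The part of these markers in the HDAC values was not tested.

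Training was examined by comparing WT VEH with WT VEH_HC mice, killed 1 h after the last training session or taken from the home cage. None of the 11 lines was called, where 8.4% of 16820 genes were, 900 higher and 513 lower. At an unadjusted p under 0.05 there were 2 of 11, Hdac6 and Hdac5, against 27.8% of all genes. Hdac6 had 50.9, 55.1 and 50.7 CPM in WT VEH_HC and 39.6 and 46.6 in WT VEH. All trained libraries were below all home cage libraries, with a log2 fold change of -0.28 (SE 0.08, adjusted p = 0.053, edgeR quasi-likelihood F test, Benjamini-Hochberg). This value sits at the limit, since DESeq2 gave an adjusted p of 0.026, and without WT VEH_HC replicate 3 the edgeR value was 0.040. Without WT VEH replicate 1 the log2 fold change was -0.17 (adjusted p = 0.40), and without WT VEH replicate 2 it was -0.40 (adjusted p = 0.057, edgeR). Its lowest and highest adjusted p in 19 alternatives were 0.012 and 0.40. After correction for GC content and length the log2 fold change of Hdac6 was -0.20 (adjusted p = 0.14).

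Hdac5 had 268, 268 and 285 CPM in WT VEH_HC and 308 and 291 in WT VEH. The trained libraries lay above the others, with a log2 fold change of 0.13 (SE 0.06, adjusted p = 0.18). After the correction it was 0.23 (adjusted p = 0.058). Hdac7, a class IIa gene also known from blood vessels, had 26.8, 32.9 and 29.1 CPM in WT VEH_HC and 27.1 and 24.5 in WT VEH, which overlapped. In all, 5 of 11 lines had groups that did not overlap, 4 higher and 1 lower after training, against 43.8% of all genes (23% higher and 20.8% lower). The class I genes ranged from -0.12 to 0.13 in log2 fold change, with Hdac3 at -0.12 and Hdac8 at 0.13. The trained WT group also stood apart in markers of the choroid plexus, the epithelium that makes cerebrospinal fluid. All 10 listed choroid plexus genes were called higher, with summed levels of 74.8 to 228 CPM in WT VEH_HC and 1546 to 2383 in WT VEH, and none was at 0 in any library. Of the other lists, 1 of 6 microglia markers was called higher, and 1 of 3 for CA3 and 1 of 3 for dentate gyrus lower. Summed levels were lower without overlap in WT VEH for neurons (3823 to 3878 CPM in WT VEH_HC and 3483 to 3796 in WT VEH), dentate gyrus (337 to 488 and 289.5 to 321) and neocortex (80.5 to 86.5 and 75.3 to 77.0). For astrocytes they were higher, at 1901 to 2029 and 2074 to 2087 CPM. The part of these markers in the HDAC values was not tested.

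The genotypes were then compared after training, TAU VEH against WT VEH. Hdac5, Hdac7 and Hdac11 were called lower and no HDAC gene was called higher, which is 3 of 11 lines where 14.4% of all genes were called (3.61% higher and 10.8% lower). Hdac5 had 308 and 291 CPM in WT VEH and 204 and 197 in TAU VEH, with means of 299 ± 11.7 and 200.4 ± 5.08 CPM (SD, n = 2 each). Both TAU VEH libraries were below every WT library of the learning experiment, home cage included. The share of all genes with this order was not computed. The log2 fold change was -0.58 (SE 0.065, adjusted p = 0.00099, edgeR quasi-likelihood F test, Benjamini-Hochberg), a level 33.1% lower.

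Hdac11 had 265 and 281 CPM in WT VEH and 209 and 220.1 in TAU VEH, also without overlap. These too were below all WT libraries of the experiment, an order whose share over all genes was not computed. Its log2 fold change was -0.35 (SE 0.069, adjusted p = 0.0063, same test). Hdac7 was expressed at a lower level, with 27.1 and 24.5 CPM in WT VEH and 18.1 and 20.3 in TAU VEH. The log2 fold change was -0.43 (SE 0.11, adjusted p = 0.020). The calls of Hdac7 and Hdac11 depended on single libraries. Hdac7 had adjusted p-values of 0.15 without WT VEH replicate 1 and 0.20 without TAU VEH replicate 1 (edgeR, log2 fold change -0.35 in both). Hdac11 had 0.059 without WT VEH replicate 2 and 0.081 without TAU VEH replicate 1 (log2 fold changes -0.30 and -0.31). Hdac5 was called whichever of the 9 libraries was left out.

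The other class IIa genes and the class I genes did not pass the test. Hdac4 had 33.1 and 32.4 CPM on its main line in WT VEH and 30.2 and 27.6 in TAU VEH, without overlap, for a log2 fold change of -0.18 (95% interval -0.37 to 0.01). Corrected for GC content and length, this line had 32.0 and 30.9 CPM in WT VEH and 34.0 and 30.3 in TAU VEH, which overlapped. Hdac9 was at 0.11 (95% interval -0.08 to 0.29). Class IIa lines therefore ranged from -0.58 to 0.11 and did not share a sign. Class I genes ranged from -0.10 for Hdac3 to 0.12 for Hdac2. Hdac2 had 54.3 and 53.7 CPM in WT VEH and 60.8 and 56.6 in TAU VEH, so that its groups did not overlap, with a 95% interval of -0.06 to 0.30. Corrected for GC content and length, Hdac2 had 53.1 and 56.0 CPM in WT VEH and 53.3 and 53.9 in TAU VEH, which overlapped. Without TMM factors, with library size alone, the median of all genes moved to 0.15, Hdac2 was called higher (log2 fold change 0.27, adjusted p = 0.029) and Hdac5 was the 1 member called lower, with Hdac7 at -0.29 and Hdac11 at -0.20 (adjusted p = 0.079 for each, edgeR). That scaling also turned the calls over all genes from 608 higher and 1815 lower to 2578 higher and 1020 lower. Groups did not overlap for 7 of 11 lines, 2 higher and 5 lower in TAU VEH, against 57.9% of all genes (28.5% higher and 29.4% lower).

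**Figure D2:**
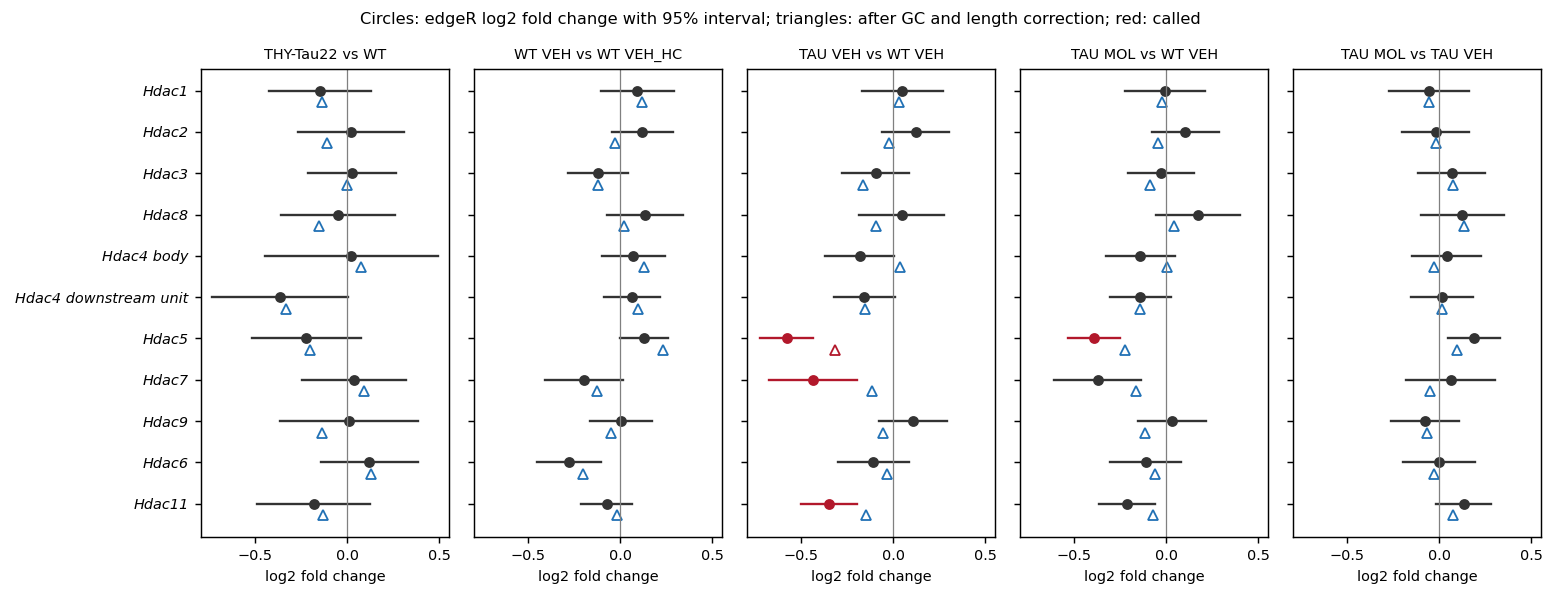
Log2 fold change (x axis) of each HDAC line (y axis) in 5 comparisons; circles with bars are edgeR values with 95% intervals, triangles the values after correction for GC content and length, and red marks called values. In TAU VEH against WT VEH, Hdac5, Hdac7 and Hdac11 are red before correction and Hdac5 alone after it.

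The 3 members that fell had exons rich in G and C, a property they shared with many other genes that were lower. GC content was 58.2% for Hdac5, 59.8% for Hdac7 and 56.2% for Hdac11, and 56.6% for the main line of Hdac4, against a median of 50.0% over all genes tested. It was 41.01% to 43.0% for Hdac2, Hdac8 and Hdac9. Across all 16780 genes with a GC value, the log2 fold change in TAU VEH against WT VEH was related to GC content with a Spearman's rho of -0.52. Genes within 1 percentage point of the GC content of Hdac5 had a median log2 fold change of -0.27, and 35.5% of them were called lower. For Hdac7 this median was -0.33 with 45.6% called lower, and for Hdac11 -0.18 with 24.0%. The 3 members thus lay below the median of genes of like GC content by unequal amounts, with Hdac7 closest to it.

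After correction for GC content and length in each library, Hdac5 was the only HDAC line called, 1 of 11 where 2.88% of all genes were. Corrected values of Hdac5 were 294 and 280.3 CPM in WT VEH and 236 and 224 in TAU VEH, which did not overlap. The share of all genes without overlap after the correction was not computed. The corrected log2 fold change was -0.32 (SE 0.071, adjusted p = 0.036, edgeR quasi-likelihood F test, Benjamini-Hochberg). Corrected against home cage mice the picture was not the same, since the WT VEH_HC libraries had 241, 232 and 261 CPM and overlapped with those of TAU VEH. For Hdac11 the corrected log2 fold change was -0.15 (adjusted p = 0.24) and for Hdac7 -0.11 (adjusted p = 0.62). A difference in GC dependence that follows genotype cannot be told apart from a difference in expression that follows GC content, because all 4 TAU libraries had a negative dependence.

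**Figure D3:**
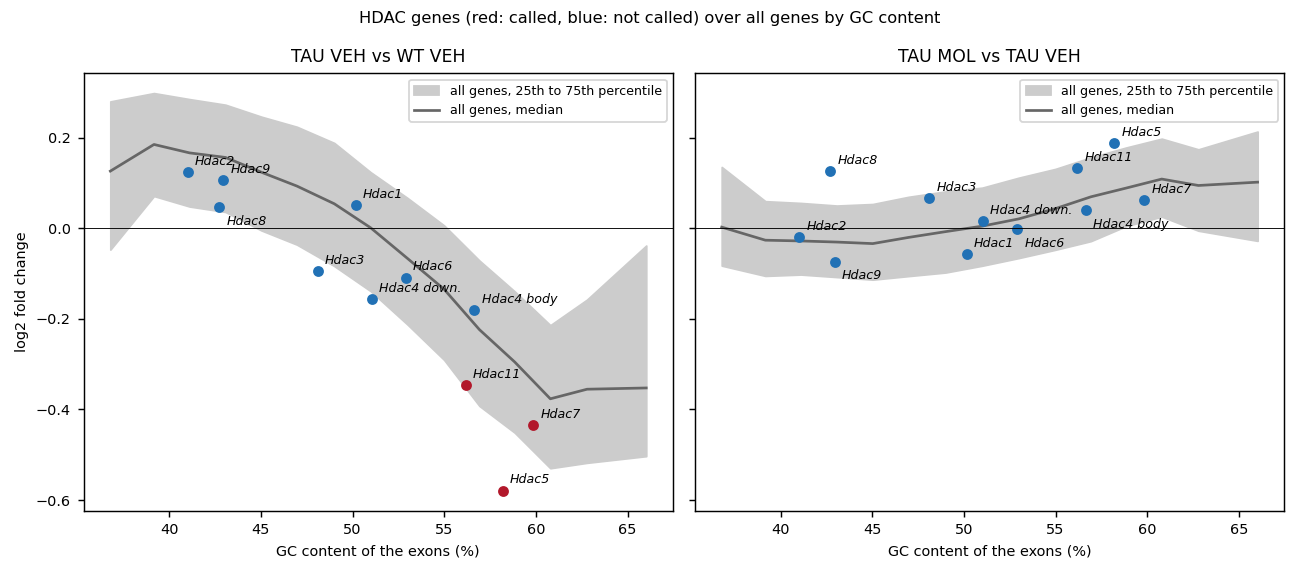
Log2 fold change (y axis) against the GC content of a gene's exons in percent (x axis) for TAU VEH against WT VEH (left) and TAU MOL against TAU VEH (right); the line and band give the median and the 25th to 75th percentile of all genes in bins of GC content, points are HDAC lines and red marks called ones. Hdac5 at 58.2% GC lies below the band on the left at -0.58 and above the line on the right at 0.19.

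Cell type markers moved in the same comparison. Of the markers tested, 10 of 10 for choroid plexus, 3 of 3 for CA1, 1 of 2 for neocortex, 1 of 4 for neurons and 1 of 6 for microglia were called lower, and 2 of 5 for astrocytes higher. None of the markers of oligodendrocytes, endothelial cells, CA3, dentate gyrus and thalamus was called. Summed levels were 1546 to 2383 CPM in WT VEH and 230 to 273 in TAU VEH for choroid plexus, 973 to 1045 and 570 to 604 for CA1, and 150 to 157 and 113 to 124 for endothelial cells. They were also lower without overlap for oligodendrocytes (6796 to 7019.8 and 6530.4 to 6612 CPM) and neocortex (75.3 to 77.0 and 48.5 to 65.2), and higher for astrocytes (2074 to 2087 and 2367 to 2629) and neurons (3483 to 3796 and 3802 to 3816). No listed marker was at 0 in a library of either group. The part of these differences in the HDAC values was not tested, and in bulk tissue fewer cells of a type and less RNA per cell cannot be told apart.

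The effect of CSP-TTK21 was examined by comparing TAU MOL with TAU VEH. No HDAC line was called, and neither was any gene (0%), while 1064 genes had an unadjusted p under 0.05 and DESeq2 called 56. For Hdac5, the TAU VEH libraries had 204 and 197 CPM and the TAU MOL libraries 231 and 225. The treated libraries were both above the others, with a log2 fold change of 0.19 (SE 0.065, 95% interval 0.05 to 0.33, adjusted p = 0.64, edgeR quasi-likelihood F test, Benjamini-Hochberg). It was the 1 HDAC line with an unadjusted p under 0.05 (0.014), against 6.33% of all genes. Corrected for GC content and length, Hdac5 was at 0.09 (adjusted p = 1). Summed markers did not overlap for choroid plexus, at 230 to 273 CPM in TAU VEH against 692 to 754 in TAU MOL, nor for CA1, at 570 to 604 against 828 to 835. Sums of neocortex markers were also higher without overlap, at 48.5 to 65.2 against 69.8 to 70.0 CPM. They were lower in TAU MOL without overlap for neurons, at 3802 to 3816 against 3436 to 3490 CPM, and for CA3, at 245 to 247 against 196 to 198. The other 6 lists overlapped. No marker of any list was called, and their part in the HDAC values was not tested.

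Hdac11 stood at 209 and 220.1 CPM without the molecule and at 242 and 229 CPM with it (log2 fold change 0.13, 95% interval -0.02 to 0.28). Hdac8 stood at 9.22 and 8.83 CPM without it and at 10.2 and 9.55 CPM with it (log2 fold change 0.13, 95% interval -0.10 to 0.35). Like Hdac5, these groups did not overlap, which made 3 of 11 lines, all higher in TAU MOL, against 38.9% of all genes (21.5% higher and 17.4% lower). The remaining lines overlapped, Hdac7 among them, with 19.1 and 20.9 CPM in TAU MOL (log2 fold change 0.06, 95% interval -0.18 to 0.30). For Hdac2 the value was -0.02 (95% interval -0.20 to 0.16).

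Compared with WT VEH, TAU MOL mice had lower Hdac5 and no other HDAC line was called, 1 of 11 where 5.63% of all genes were called (0.612% higher and 5.02% lower). This comparison shares its WT VEH libraries with the genotype comparison above. Hdac5 had a log2 fold change of -0.39 (SE 0.065, adjusted p = 0.010, edgeR quasi-likelihood F test, Benjamini-Hochberg). After correction for GC content and length it was -0.22 (adjusted p = 0.22, same test). The call was also lost when any of the 4 libraries compared was left out, in fits that kept 1 library in a group. Over 19 alternatives, these fits included, the log2 fold change of Hdac5 ran from -0.43 to -0.22. Hdac7 was at -0.37 (SE 0.11, adjusted p = 0.069) and Hdac11 at -0.21 (SE 0.069, adjusted p = 0.10), by the same test. After the correction mean Hdac7 was 24.2 CPM in WT VEH and 21.6 in TAU MOL, against 25.8 and 20.0 before. Mean Hdac11 was 263 and 249 CPM, against 273 and 235 before. Hdac7 was called by DESeq2, without the low-count filter, in a fit on these groups alone, and without WT VEH_HC replicate 2 (adjusted p = 0.023). Groups did not overlap for 7 of 11 lines, 2 higher and 5 lower, against 52.5% of all genes (25.6% higher and 26.9% lower). Summed choroid plexus markers were 692 to 754 CPM in TAU MOL, below WT VEH, with 6 of 10 called lower. For CA1 1 of 3 markers was called lower, for CA3 1 of 3 and for microglia 1 of 6, and for astrocytes 1 of 5 was called higher. Summed levels were also lower in TAU MOL without overlap for CA1 (973 to 1045 CPM in WT VEH and 828 to 835 in TAU MOL), CA3 (240.0 to 275 and 196 to 198), endothelial cells (150 to 157 and 110.3 to 123) and neocortex (75.3 to 77.0 and 69.8 to 70.0), and higher for astrocytes (2074 to 2087 and 2272 to 2635). Their part in the HDAC values was not tested.

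Whether the genotype contrast differed between the trained and the resting cohort was tested in 1 fit of all 14 libraries, on 17026 genes listed in both tables. None of the 11 lines was called, where 0.129% of genes were, and here an adjusted p under 0.05 alone decided a call. Hdac7 had the lowest difference, -0.44 (SE 0.17, unadjusted p = 0.019, adjusted p = 0.53 by edgeR's quasi-likelihood test), with contrasts of 0.04 at rest and -0.43 after training. Corrected for GC content and length, mean Hdac7 was 19.4 CPM in WT and 20.7 in THY-Tau22 at rest. After training it was 24.2 in WT VEH and 22.5 in TAU VEH. Hdac5 followed with -0.33 (SE 0.15, adjusted p = 0.63), from -0.22 at rest and -0.58 after training. So the lower levels of both genes after training were not shown to be particular to the trained cohort. The value of Hdac5 depended on both THY-Tau22 libraries. Without replicate 2 the difference was -0.52. The contrast of Hdac5 at rest was -0.40 without THY-Tau22 replicate 1 and -0.05 without replicate 2. Corrected for GC content and length, the difference for Hdac5 in all 14 libraries was -0.11 (adjusted p = 0.80, edgeR quasi-likelihood F test). The cohorts may also have differed in injections, and were sequenced as separate experiments.

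Hdac4 is split in the annotation into a main line (ENSMUSG00000026313, mm9 chromosome 1 from 93829334 to 94044970, minus strand, 27 exons) and a line just downstream on the same strand (ENSMUSG00000073617, 93825362 to 93827753, 1 exon of 2392 bases), separated by 1580 bases. The ratio of downstream to main counts was 0.956 to 1.08 in the 9 learning libraries and 1.05 to 1.15 in 4 of the 5 basal libraries. In WT replicate 2 it was 2.43. That library had 12.7 CPM on the main line, against 22.7 and 18.3 in the other WT libraries, and 30.9 CPM on the downstream line, against 24.1 and 21.1. The pair thus kept to a nearly fixed ratio in 13 libraries and departed from it in 1. The same library had the most negative dependence on gene length, with a rho of -0.26 across genes. WT VEH replicate 2 had a rho of -0.23 and a ratio of 1.01, and WT VEH_HC replicate 3 a rho of -0.17 and a ratio of 0.984. The part of length dependence in the Hdac4 ratio was not tested. With both lines summed, Hdac4 was at -0.19 in THY-Tau22 against WT (adjusted p = 0.90) and at -0.17 in TAU VEH against WT VEH (adjusted p = 0.17).

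**Figure D4:**
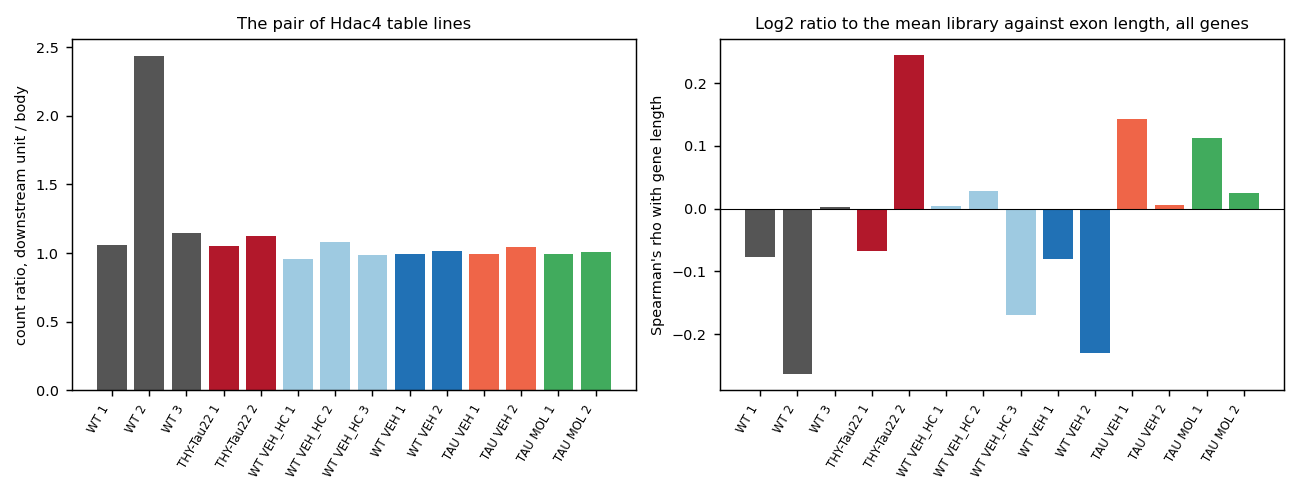
Left, ratio of counts on the downstream line to counts on the main line of Hdac4 (y axis, from 0) in each library (x axis). Right, Spearman's rho across all genes of exon length with each library's log2 ratio to the mean library. WT replicate 2 stands at 2.43 on the left and -0.26 on the right.

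Genes that act with the HDACs were counted from 6 lists. In TAU VEH against WT VEH, subunits of the class I complexes had 4 of 26 genes lower and none higher with TMM factors, and 2 lower and 5 higher with library size alone. Among them Mta1, a subunit of the NuRD complex, was at -0.39 (SE 0.071) and Gatad2a, also of NuRD, at -0.28 (SE 0.073). The median of this list was -0.04, against 0.00 over all genes. Of the MEF2 factors, 1 of 3 tested was lower and 1 higher, Mef2d at -0.59 (SE 0.089) and Mef2a at 0.27 (SE 0.067), so the partners of class IIa proteins moved in both directions.

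Among the kinases of class IIa proteins, 4 of 15 were lower and 2 higher, with a list median of -0.04. Sik1, a salt-inducible kinase that is itself induced by cAMP signalling, was at -0.61 (SE 0.13), Camk2a at -0.55 (SE 0.085) and Mark2 at -0.47 (SE 0.071). The kinases that rose were Camk4 at 0.38 (SE 0.062) and Camk1d at 0.24 (SE 0.075). The list thus held calls in both directions. No 14-3-3 gene of 6 was called, 2 of 7 sirtuins were lower (Sirt6 at -0.28 and Sirt3 at -0.27), and of 10 acetyltransferases Kat2a was lower at -0.26. These 15 calls are of 67 genes, against 14.4% of all genes, and the count was 6 without WT VEH replicate 1 or TAU VEH replicate 1 (7.07% and 5.29% of all genes) and 7 without TAU VEH replicate 2 (7.17%). The direction of the calls depended on the scaling. With library size alone, where the median of all genes was 0.15, the 6 lists had 13 genes higher and 7 lower, in place of 3 and 12 with TMM factors. Class I subunits then had 5 higher and 2 lower, the 14-3-3 genes 2 higher, the acetyltransferases 1 higher and none lower, and no sirtuin was called. After correction for GC content and length, 2 of 67 genes were called, against 2.88% of all genes, Camk2a at -0.50 (adjusted p = 0.023) and Mef2d at -0.44 (adjusted p = 0.039, edgeR quasi-likelihood F test, Benjamini-Hochberg).

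After training in WT mice, 8 of 67 partner genes were called, against 8.4% of all genes. The count was 1 without WT VEH replicate 1 or replicate 2 (0.422% and 1.63% of all genes), 3 or 4 without any other learning library but WT VEH_HC replicate 3 (3.67% to 5.7%), and 16 without that (16.7%). Calls were 3 higher and 5 lower with TMM factors, and 6 higher and 3 lower with library size alone. Sik1 rose by 0.97 (SE 0.11), and among acetyltransferases Kat2b (PCAF) rose by 0.63 (SE 0.13) and Myst4 (also named Kat6b) was lower at -0.29 (SE 0.071). Sap30, a subunit of the Sin3 complex, rose by 0.66 (SE 0.16), while Mta3 and Chd3 of the NuRD complex were lower, both at -0.22. Camk2g at -0.30 and the 14-3-3 gene Ywhag at -0.26 were lower too. Sik1 therefore rose with training in WT mice and was lower in trained TAU VEH mice than in trained WT mice, with both values resting on the same WT VEH libraries. No MEF2 gene of 3 and no sirtuin of 7 was called. Corrected for GC content and length, Sik1, Kat2b, Sap30, Myst4 and Camk2g were called, 5 of 67 against 4.55% of all genes.

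In TAU MOL against WT VEH, 6 of 67 partner genes were called, against 5.63% of all genes, and 0 when any of the 4 libraries compared was left out, where 2 to 4 genes were called in all. Calls were 1 higher and 5 lower with TMM factors, and 5 higher and 2 lower with library size alone, where the median of all genes was 0.12. Among them Camk2a was at -0.50 (SE 0.085), Mef2d at -0.47 (SE 0.089), Mta1 at -0.33 (SE 0.070) and Mark2 at -0.32 (SE 0.070), and Camk2d was higher at 0.40 (SE 0.097). None of the 6 was called after the correction, where 0.149% of all genes were. In THY-Tau22 against WT and in TAU MOL against TAU VEH, 0 genes of the 6 lists were called by edgeR's quasi-likelihood test. The counts at an unadjusted p under 0.05 were 3 and 9 of 67, against 4.92% and 6.33% of all genes, and DESeq2 called 1 and 0, the 1 being Sik1 at -0.79 at rest.

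For each member, the genes whose log2 CPM followed it most closely over the 9 learning libraries were named as a description, without a test. For Hdac5 these were 2310022A10Rik (Pearson's r 0.994) and Fam173a (0.991), for which r was 0.900 and 0.962 over the 5 basal libraries. Both have a GC content near that of Hdac5, 57.2% and 59.2%. For Hdac11 they were Rfx1, a transcription factor (0.986, basal 0.943, GC 60.8%), and Bysl (0.984, basal 0.519). For Hdac7 they were Diap1 (0.987, basal 0.484) and Gna11 (0.984, basal 0.740), and for Hdac2, Efha2 (0.990, basal 0.910, GC 40.2% beside 41.01%) and Mkks (0.984, basal 0.759). The closest genes of these members kept a positive r in the basal libraries.

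That was not so for all of the remaining members, though the nearest genes of Hdac8 and of the main Hdac4 line also kept a positive r. The nearest genes were Rassf1 and Epsti1 for Hdac1 (0.937 and 0.935), with basal values of -0.29 and -0.77. For Hdac3 they were Lrrc41 (0.981, basal -0.40) and Cltb (0.971, basal 0.075), and for Hdac6, Mapre2 (0.984, basal 0.19) and Chkb (0.984, basal -0.25). For Hdac8 and Hdac9 they were Gm10118 (0.993, basal 0.055), Cbln2 (0.984, basal 0.23), Gm6086 (0.953, basal -0.15) and Gm3248 (0.947, basal 0.16). The nearest genes of the main Hdac4 line were Arhgap22 (0.930, basal 0.62) and Gas2l2 (0.919, basal 0.32), and those of the downstream line Galnt4 (0.947, basal -0.82) and Fads3 (0.938, basal 0.54). The points of each r are 9 libraries of 4 groups, which share group, depth and GC dependence.

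Promoters of the members that were called, and that of Hdac2 as a member that was not, are shown because the called genes share a high GC content and the acetyltransferases targeted by the treatment are recruited to promoters by CREB. The sequences are from a table of RefSeq promoters (GRCm38.p6), in which 8 of the 10 members were matched, and each matched the mm9 genome exactly at the place given. They run 5′ to 3′ up to the base before the transcription start, and capitals mark GGGCGG, the GC box bound by Sp1, on either strand. In Hdac11, where the RefSeq start lies within the annotated gene, the part outside that gene is shown.
Hdac5, chr11:102091487-102091736, minus strand: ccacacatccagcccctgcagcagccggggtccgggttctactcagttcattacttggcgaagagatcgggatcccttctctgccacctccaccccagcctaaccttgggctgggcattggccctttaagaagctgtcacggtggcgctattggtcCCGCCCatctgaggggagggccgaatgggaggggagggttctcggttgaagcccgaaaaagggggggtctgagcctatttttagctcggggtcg
Hdac7, most distal of 4 starts, chr15:97674934-97675183, minus strand: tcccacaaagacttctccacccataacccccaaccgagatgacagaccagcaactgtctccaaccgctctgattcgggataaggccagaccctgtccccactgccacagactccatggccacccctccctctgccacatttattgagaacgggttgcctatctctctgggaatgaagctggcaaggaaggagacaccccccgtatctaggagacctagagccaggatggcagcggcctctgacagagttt
Hdac11, chr6:91106559-91106658, plus strand: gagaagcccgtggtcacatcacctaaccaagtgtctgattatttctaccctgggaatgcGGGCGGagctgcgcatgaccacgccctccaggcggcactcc
Hdac2, chr10:36694100-36694349, plus strand: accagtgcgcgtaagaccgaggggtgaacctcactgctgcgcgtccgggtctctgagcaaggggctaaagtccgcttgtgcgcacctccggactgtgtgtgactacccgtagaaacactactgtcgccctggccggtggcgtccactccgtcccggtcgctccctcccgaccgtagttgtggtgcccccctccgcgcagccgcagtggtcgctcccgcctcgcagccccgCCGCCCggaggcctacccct

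The promoter of Hdac5 holds 1 GC box, ending 88 bases before the start, that of Hdac2 holds 1, ending 14 bases before it, and that of Hdac11 holds 1, ending 185 bases before it. The distal promoter of Hdac7 holds none. Over the 250 bases before each start, GGGCGG on either strand was present in 6 of 12 member promoters and in 32.7% of all 32851 RefSeq promoters. CCAAT was present in 5 of 12 against 33.8%. The full cAMP response element TGACGTCA was in 0 of 12 against 1.55%, and its core TGACG, which lies within it, in 2 of 12 against 17.8%, those of Hdac4 and Hdac11. GC content was 60.8% in the promoter of Hdac5, 65.2% in that of Hdac11, 68.8% in that of Hdac2 and 56.4% in the distal one of Hdac7, with a median of 52.4% over all promoters. The other 3 Hdac7 promoters had 61.2%, 62.0% and 74.0%, and 1 of them, that with 74.0%, holds GGGCGG.

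The genes lie apart in the genome. In mm9 coordinates Hdac5 (ENSMUSG00000008855) spans 102055746 to 102091480 on chromosome 11, Hdac7 (ENSMUSG00000022475) 97623095 to 97674933 on chromosome 15 and Hdac11 (ENSMUSG00000034245) 91106659 to 91124686 on chromosome 6. Hdac6 (ENSMUSG00000031161) and Hdac8 (ENSMUSG00000067567) are both on the X chromosome, at 7507246 to 7525015 and 99479978 to 99700698. Values are counts over all exons of a gene. Reads from opposite strands could not be told apart, and such overlaps cover 29 exon bases of Hdac7 (Slc48a1), 96 of Hdac11 (Gm14573) and 132 of the main Hdac4 line (Gm17418), at most 3.23% of the exon bases. Hdac5 shares no exon base with another gene. Counts per library ran from 4460 to 13311 for Hdac5 and from 234 to 478 for Hdac8.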

How the data were processed

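The authors prepared poly-A libraries without strand information and sequenced single-end reads, which they aligned to mm9 with TopHat2 2.0.10 and Bowtie2 2.1.0. Uniquely aligned reads were counted per Ensembl gene with HTSeq 0.5.4p3. The authors deposited these raw counts, which were used for all tests. The normalized signal deposited beside them (each library's counts over a single factor) was not used. In the learning table, 138 lines without a gene or values were left out. The authors' methods state that 3 of 12 learning libraries were excluded, and these were not analysed here.

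Groups came from the sample labels. Differences were tested with edgeR 4.0.16 in R 4.3.3 (TMM factors, filterByExpr, quasi-likelihood F test, Benjamini-Hochberg adjustment over all genes tested), with the 5 basal libraries in 1 fit and the 9 learning libraries in another, and DESeq2 1.42.0 was the alternative. Genes were called where the adjusted p was below 0.05 and the log2 fold change beyond 0.2 in either direction. For the difference of genotype contrasts the limit on the log2 fold change was not applied. The scripts were tested on simulated data first. Exon length and GC content came from GENCODE on the NCBIM37 (mm9) genome and were at hand for 99.8% of genes tested in each table. The correction for both used a loess curve (span 0.3) per library. Log2 CPM carried a prior count of 1. The common coefficient of variation was 0.129 in the basal and 0.084 in the learning table, and the number of libraries and their depth both limit the precision, in shares that were not tested. No 2 libraries of the same group agreed within sampling noise, and pairs across groups were not compared. Genes named are all HDAC members, up to 3 called genes per direction with the largest change from each partner list, the 2 genes most like each member, and Thy1, and 1 gene that this rule names is not reported here. The members and lists were chosen with earlier results of these data known. Alternatives were DESeq2, other scaling and filters, the correction, the replicate number as a block, a fit on the groups compared, leaving out each library, and, added after the data were seen, both Hdac4 lines summed and, for the partner lists, all but DESeq2, library size alone and the correction. Python 3.11.15 with pandas 2.3.3, numpy 2.4.6 and matplotlib 3.10.9 made tables and figures.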

Additional observations from a re-analysis of the deposited data

How the results depend on the processing

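Of 1226 recomputed HDAC fold changes, 1199 kept their side of the threshold, 16 lost a call and 11 gained one. No called value changed sign, and 80 values called in neither setting did. Hdac5 in TAU VEH against WT VEH was called in 19 of 19 alternatives (log2 fold change -0.62 to -0.32), and Hdac7 and Hdac11 in 14 of 19 each. Leaving out WT VEH_HC or TAU MOL libraries and summing the Hdac4 lines are among the 19, and leave the compared counts unchanged. No library was left out together with the correction. Without the low-count filter, calls over all genes were 125 in THY-Tau22 against WT, 2686 in WT VEH against WT VEH_HC, 233 in TAU MOL against TAU VEH, 1590 in TAU MOL against WT VEH and 77 for the difference of genotype contrasts, HDAC calls were 1 in WT VEH against WT VEH_HC and 2 in TAU MOL against WT VEH, and partner calls 1 in THY-Tau22 against WT and 1 in TAU MOL against TAU VEH. DESeq2 gave 40 genes and 1 partner gene in THY-Tau22 against WT, 1 HDAC gene among 1850 genes in WT VEH against WT VEH_HC, 56 genes in TAU MOL against TAU VEH, 2 HDAC genes among 1331 genes in TAU MOL against WT VEH and 121 genes for the difference. The GC and length correction gave 11 genes in THY-Tau22 against WT, 766 genes and 5 partner genes in WT VEH against WT VEH_HC, 484 genes, 1 HDAC gene and 2 partner genes in TAU VEH against WT VEH, and 25 genes, 0 HDAC genes and 0 partner genes in TAU MOL against WT VEH. A fit on the groups compared gave 310 genes and 2 partner genes in WT VEH against WT VEH_HC, 60 genes and 1 partner gene in TAU MOL against TAU VEH, and 1490 genes with 2 HDAC genes in TAU MOL against WT VEH. Library size alone gave 757 genes higher and 326 lower in TAU MOL against WT VEH, where TMM gave 103 and 844, and its median of all genes was 0.12. In WT VEH against WT VEH_HC it gave 1278 higher and 434 lower, where TMM gave 900 and 513. The cause of these shifts was not tested.

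Correlations of the deviations of libraries with the same replicate number ran from -0.16 to 0.24, and no range for unpaired libraries was computed. Among WT VEH, TAU VEH and TAU MOL, deviations within a group mirror each other, so both numbers gave the same value by construction. These correlations therefore cannot show whether the replicate number pairs the libraries. With the number as a block, 37 genes were called in THY-Tau22 against WT, and 3000 genes, 15 partner genes and 1 HDAC gene (Hdac6, adjusted p = 0.038 by edgeR's quasi-likelihood test) in WT VEH against WT VEH_HC. The block with the GC and length correction gave 1 gene in THY-Tau22 against WT, 1745 genes and 1 HDAC gene (Hdac5, log2 fold change 0.28, adjusted p = 0.019) in WT VEH against WT VEH_HC, 773 genes, 5 partner genes and 1 HDAC gene in TAU VEH against WT VEH, 1 gene in TAU MOL against TAU VEH, and 95 genes, 1 partner gene and 0 HDAC genes in TAU MOL against WT VEH. In TAU MOL against WT VEH the block gave 1321 genes in all, of which 230 higher against 103 without it.

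Leaving out 1 library at a time gave 1 to 15 genes and 0 HDAC genes in THY-Tau22 against WT, 73 to 2798 genes and 0 to 1 HDAC genes in WT VEH against WT VEH_HC, 915 to 2944 and 1 to 3 in TAU VEH against WT VEH, 0 to 15 and 0 in TAU MOL against TAU VEH, 2 to 1379 and 0 to 2 in TAU MOL against WT VEH, and 7 to 764 and 0 to 1 for the difference. Partner calls ran from 1 to 16 in WT VEH against WT VEH_HC, 6 to 17 in TAU VEH against WT VEH and 0 to 9 in TAU MOL against WT VEH, and stood at 0 in THY-Tau22 against WT and in TAU MOL against TAU VEH. Partner counts beyond DESeq2, library size and the GC correction were added after the data were seen. A group left with 1 library was assumed to vary like the others. Summing both Hdac4 lines changed no call of a member. In TAU VEH against WT VEH, standard errors were widest for the low members Hdac7 (0.11), Hdac8 (0.10) and Hdac1 (0.099).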
